A study of Mus musculus with 6 samples.

Results

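The genes described here are the axon guidance ligands and receptors: semaphorins and their plexin receptors, ephrins and their Eph receptors, Slits and Robos, netrins and Unc5 receptors. Members were the rows of the deposited gene table whose symbol carries one of these family names, 68 of 34745 genes. Of the 68, 58 had 10 or more counts over the 6 libraries and 52 passed the filter on low counts and were tested. RNA came from LSECs (liver sinusoidal endothelial cells), the fenestrated endothelium that lines the sinusoids of the liver. The groups were Tgfbr2 ECKO mice (titled ECKO-CCL4), an endothelial knockout of the type II TGF-beta receptor, and Tgfbr2f/f littermates (titled WT-CCL4), which carry the floxed allele, with 3 libraries each. CCl4 (carbon tetrachloride), a toxin that injures hepatocytes and leads to fibrosis, had been injected intraperitoneally 2 times a week for 6 weeks in both groups, so no library shows uninjured liver. The Cre driver, the deleted part of Tgfbr2, the age and sex of the mice and the isolation of the LSECs were not given in the sources used here. Nor do these say whether a library stands for its own mouse, so a p-value here measures spread between samples that may be technical. Log2 fold changes are of ECKO over f/f throughout.

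These families were named for steering growing axons, and the same ligand and receptor pairs act between endothelial cells and between endothelium and neighbouring cells. Most secreted class 3 semaphorins signal through plexins with a neuropilin as co-receptor, membrane semaphorins bind plexins directly, and ephrins and Eph receptors signal at contacts between cells. Slits bind Robo receptors, and netrins bind Unc5 receptors. In vessels ephrin B2 marks arteries and Ephb4 marks veins, Plxnd1 is an endothelial semaphorin receptor, and Robo4 is a Robo largely restricted to endothelium.

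Of the 52 members tested, 9 were lower in the libraries labelled ECKO than in the f/f libraries and none was higher (edgeR quasi-likelihood test, Benjamini-Hochberg adjusted over all genes, threshold 0.05). Over all 13692 genes tested, 2.79% were lower and 1.24% higher by the same rule, or 4.03% in both directions. The 9 were the ligands Slit3, Sema3a and Sema6c and the receptors Robo1, Robo2, Plxna4, Plxnb1, Epha3 and Unc5b. At an unadjusted p under 0.05, 3 members were higher and 23 lower, against 10.4% and 13.1% of all genes. DESeq2, run without that filter on 58 members, called 14 lower and 1, Robo4, higher, against 5.15% and 2.25% of 20077 genes. Limma-voom, on the same 52 members as edgeR, called 5 lower and 0 higher, against 1.46% and 0.84% of all genes. Receptors held 6 of the 9 (of 24 tested, median log2 fold change -0.94) and ligands 3 (of 27 tested, median -0.40), a difference that was not tested. The median log2 fold change (ECKO over f/f) of the tested members was -0.59, against 0.01 over all genes tested, and 38 of 52 were negative, against 48.6% of all genes. The libraries of the groups did not overlap for 24 members (46.2%), 21 of them lower and 3 higher, against 30.9% of all genes, 15.2% lower and 15.7% higher. Some low members, among them Slit3 and Sema3a, would not have passed the filter on low counts on the libraries labelled ECKO alone. The counts of calls, signs and gaps are therefore not independent of the filter.

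**Figure D1:**
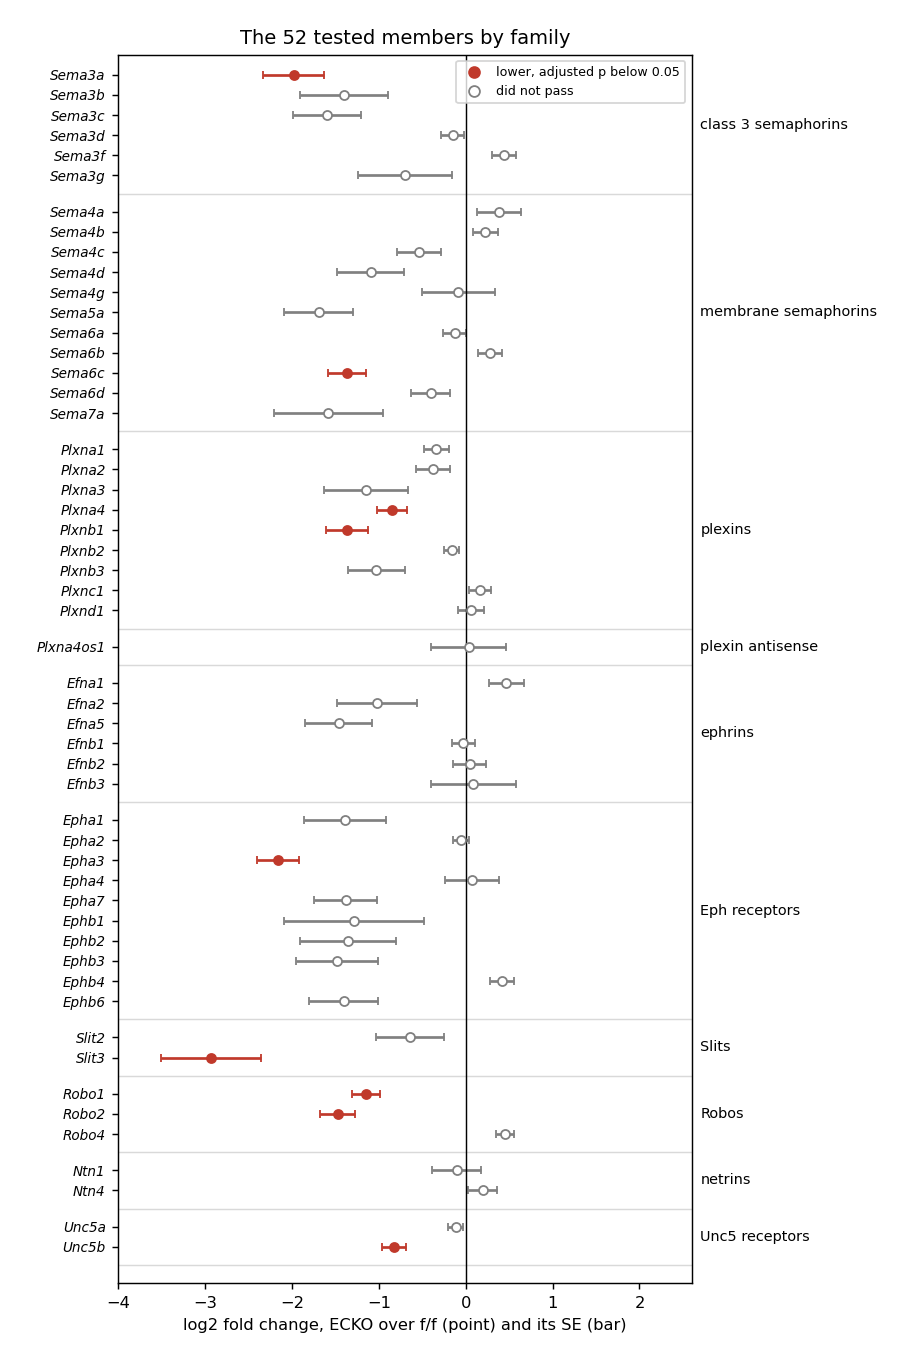
Log2 fold change of ECKO over f/f (points, horizontal axis) with its SE (bars) for the 52 tested members, grouped by family, with the 9 members lower at an adjusted p below 0.05 filled red. Those 9 lie between -2.94 for Slit3 and -0.82 for Unc5b, and the members right of 0 reach at most 0.47.

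The count of 9 depended on single libraries, with 52 or 53 members tested each time. Leaving out ECKO replicate 1 gave 0 lower members (0.149% of all genes), ECKO replicate 2 gave 3 (0.819%) and ECKO replicate 3 gave 1 (0.469%). Leaving out f/f replicate 3 gave 1 (0.397%), f/f replicate 2 gave 6 (1.29%) and f/f replicate 1 gave 11 (5.47%), the last with 2 higher members, Robo4 and Sema3f (1.76%). Among the other settings, total-count scaling gave 18 lower of 52 members (8.83% of all genes), RLE size factors 9 of 52 (2.94%) and no filter on counts 12 of 58 (2.51%). On FPKM (fragments scaled to gene length and library total, log2 with a pseudocount) the lower members numbered 8 of 51 with a pseudocount of 0.1 (3.84%), 6 of 51 with a pseudocount of 1 (2.93%) and 3 of 58 with 0.1 and no filter (1.08%). Limma-voom did not call Slit3 (adjusted p = 0.0593), Sema3a (0.0506), Plxna4 (0.0617) or Plxnb1 (0.0591). Slit3 (0.0557), Plxnb1 (0.0742) and Unc5b (0.0536) were also lost on FPKM with 0.1 and no filter. Each of the 9 kept its direction without each library in turn. Their groups did not overlap, so this outcome was all but fixed in advance and adds no support.

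Total counts were 17171850 to 18671217 in the libraries labelled ECKO and 17632271 to 25062755 in the f/f libraries, and transcripts of the mitochondrial genome took 19.7% to 32.4% of the counts in the libraries labelled ECKO and 11.5% to 23.5% in f/f. Tgfbr2 itself was at 487 to 511 CPM (counts scaled to library size, with TMM factors) in the libraries labelled ECKO and 387 to 452 CPM in f/f (log2 fold change 0.22, edgeR adjusted p = 0.228), and a transcript lacking the deleted part would still be counted, so the label is not checked by this value. Of 10 LSEC markers none passed in edgeR (at an unadjusted p under 0.05, 3 were higher, and DESeq2 called 1 higher and limma-voom 0), with summed levels of 22439 to 26331 CPM in the libraries labelled ECKO and 20377 to 23685 CPM in f/f. Some markers of other cells were also lower in the libraries labelled ECKO. Of 15 stellate cell and fibroblast markers 8 were lower (DESeq2 called 14 lower and limma-voom 8). Their summed level was 692 to 1046 CPM in the libraries labelled ECKO and 1827 to 3143 CPM in f/f. Of 6 B and plasma cell markers 3 were lower in edgeR (DESeq2 called 5 lower and limma-voom 0). Their summed level was low, at 2.21 to 3.73 CPM in the libraries labelled ECKO and 7.90 to 21.4 CPM in f/f. Of 6 mesothelial markers 2 were lower in edgeR (DESeq2 called 4 lower and limma-voom 0). These summed to 4.82 to 19.8 CPM in the libraries labelled ECKO and 24.5 to 43.6 CPM in f/f. Of 7 cholangiocyte markers 0 passed in edgeR and 7 were lower at an unadjusted p under 0.05 (158 to 212 CPM in the libraries labelled ECKO and 244 to 670 CPM in f/f; DESeq2 called 6 lower, limma-voom 0). Of 8 Schwann cell and neuron markers 3 were tested in edgeR and 1, Tubb3, was lower (DESeq2 called 2 lower and limma-voom 1). The list summed to 5.19 to 5.56 CPM in the libraries labelled ECKO and 12.1 to 14.1 CPM in f/f. Sox10 and Elavl4 had 0 counts in every library. Of 10 markers of other vascular endothelium, a list that holds the member Ephb4, 1, Cd34, was lower (2381 to 3559 CPM in the libraries labelled ECKO, 1809 to 2586 CPM in f/f, summed). The median log2 fold change of that list was 0.29. At an unadjusted p under 0.05, 2 of its markers were higher and 1 lower, and DESeq2 and limma-voom each called 1 lower and 0 higher. Summed ranges overlapped between the groups for Kupffer cell and macrophage, T and NK cell, smooth muscle, hepatocyte and platelet markers. Of these, DESeq2 called 3 Kupffer cell and macrophage markers lower and 1 higher, 2 hepatocyte markers higher and 1 smooth muscle marker lower. Only 1 of 10 T and NK cell and 2 of 5 platelet markers were tested in edgeR. Over all genes edgeR called 2.79% lower and 1.24% higher, DESeq2 5.15% and 2.25%, and limma-voom 1.46% and 0.84%. At an unadjusted p under 0.05, 13.1% were lower and 10.4% higher. The part of the listed cell types in the results below was not tested, and in bulk samples fewer cells of a type and less RNA per cell cannot be told apart.

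Levels of different genes are compared here as FPKM. These are scaled to library totals, while the edgeR log2 fold changes and adjusted p-values printed beside them are from TMM-scaled counts. A difference in FPKM between the groups is therefore not the quantity tested in edgeR. Only 3 of the 68 members averaged 100 FPKM or more and 21 averaged at least 5 FPKM. Plxnd1, Plxnc1, Robo4, Ntn4 and Ephb4 together held 61.6% to 67.0% of the members' summed FPKM in each library. Among the 21 members at or above 5 FPKM, 2 were lower and none higher, 11 had a negative log2 fold change and the median was -0.03. Among the 31 tested members under 5 FPKM, 7 were lower and none higher, 27 had a negative log2 fold change and the median was -1.35. Over all genes tested, 37.6% of the 5593 at or above 5 FPKM and 56.2% of the 8099 under it had a negative log2 fold change, with medians of 0.08 and -0.06. By the same rule 1.68% of the 5593 (94 lower, 117 higher) and 3.56% of the 8099 (288 lower, 53 higher) were called lower. The boundary of 5 FPKM was chosen after the values were seen and the difference between the strata was not tested. A low member can pass the filter on low counts through the f/f group alone. Efna2 did so, with 5, 4 and 10 counts in the libraries labelled ECKO and 18, 19 and 16 in f/f. Of the members called lower, Slit3 had 3 counts and Sema3a 9 counts in ECKO replicate 3, under the filter's minimum of 10. The libraries labelled ECKO alone would have kept neither. Signs and calls in the lower stratum are therefore not independent of the filter.

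**Figure D2:**
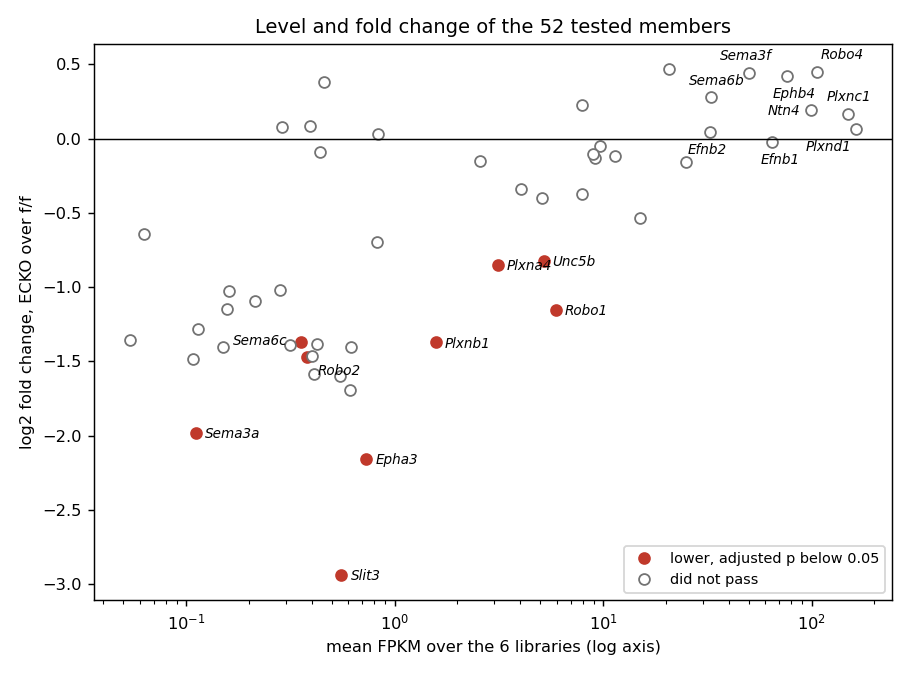
Mean FPKM over the 6 libraries (log axis) against the log2 fold change of ECKO over f/f for the 52 tested members, each a circle, filled red where lower at an adjusted p below 0.05. At the right Plxnd1 and Robo4 lie at 0.06 and 0.45, while Slit3, Sema3a and Epha3, all under 1 FPKM, lie at -1.98 or below.

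Slits and Robos held 3 of the 9 genes. Slit3 (ENSMUSG00000056427, chromosome 11, 35121224 to 35708507 on mm10/GRCm38, plus strand), a secreted ligand of Robo receptors, had 12, 22 and 3 counts in the libraries labelled ECKO and 99, 168 and 119 counts in f/f. These correspond to 0.799, 1.28 and 0.172 CPM in the libraries labelled ECKO and 4.14, 8.25 and 4.93 CPM in f/f. The lowest f/f library stood above the highest library labelled ECKO, and the log2 fold change was -2.94 (SE 0.57, edgeR adjusted p = 0.0389), the most negative among the tested members. Leaving out f/f replicate 1 kept the call (0.0281), and leaving out any other library lost it (0.0594 to 0.126). Slit2, the best known Robo ligand, had 37, 26 and 20 counts in the libraries labelled ECKO and 41, 59 and 81 in f/f. Its groups overlapped on the CPM scale (log2 fold change -0.64, SE 0.39, edgeR adjusted p = 0.356). Slit1 had 1 count in all.

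Robo1 (ENSMUSG00000022883, chromosome 16, 72663149 to 73046095, plus strand), a Slit receptor, was at 30.3, 21.0 and 29.9 CPM in the libraries labelled ECKO, against 63.4, 52.3 and 64.6 CPM in f/f. That was a 2.22-fold lower level with no overlap (log2 fold change -1.15, SE 0.16, edgeR adjusted p = 0.0159). Robo2 (ENSMUSG00000052516, chromosome 16, 73892306 to 74411825, minus strand), the other Slit receptor of this pair, was at 5.06, 4.18 and 4.01 CPM in the libraries labelled ECKO, against 9.70, 12.8 and 14.2 CPM in f/f. It too separated the groups (log2 fold change -1.47, SE 0.20, edgeR adjusted p = 0.0141). The Robo1 call was lost on leaving out ECKO replicate 1, ECKO replicate 3 or f/f replicate 3 (edgeR adjusted p of 0.0610, 0.0558 and 0.0699), and so was that of Robo2 (0.0592, 0.0654 and 0.0651). On FPKM the Robo2 call was lost with a pseudocount of 1 (limma adjusted p = 0.0591) and with 0.1 and no filter (0.0740).

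Robo4 (ENSMUSG00000032125, chromosome 9, 37401897 to 37414023, plus strand), the endothelial Robo that stabilises vessels and binds Unc5b, stood on the other side of 0. It was at 890.0, 869 and 891 CPM in the libraries labelled ECKO, against 714, 592 and 637 CPM in f/f. The groups did not overlap, but the test was missed (log2 fold change 0.45, SE 0.10, edgeR adjusted p = 0.0584). Robo4 passed with DESeq2 (adjusted p = 0.00623) and without f/f replicate 1 (0.0277), and its range over the other alternatives was 0.0517 to 0.409. Under total-count scaling its log2 fold change was 0.22. On FPKM it averaged 115 ± 9.38 in the libraries labelled ECKO and 98.5 ± 4.54 in f/f (SD, n = 3 each), while Robo1 averaged 3.27 ± 0.455 in the libraries labelled ECKO and 8.63 ± 1.10 in f/f. Robo2 averaged 0.174 ± 0.0113 FPKM in the libraries labelled ECKO and 0.582 ± 0.163 FPKM in f/f. Robo3 had 1 count in the libraries labelled ECKO and 4 in f/f.

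The bases just upstream of the annotated starts of these 3 Robo genes and of Epha3, the member with the smallest p, are shown because Robo1, Robo2 and Epha3 were lower and Robo4 was not. Sequences are from RefSeq (GRCm38.p6), 5' to 3' on the gene's strand, and stop at the base before the start given by RefSeq or by the deposited table, whichever lies upstream. Capitals mark CAGAC or its reverse complement GTCTG, the core of the element that SMAD proteins, the transcription factors of TGF-beta signalling, bind.
Robo1, chr16:72662899-72663148, plus strand: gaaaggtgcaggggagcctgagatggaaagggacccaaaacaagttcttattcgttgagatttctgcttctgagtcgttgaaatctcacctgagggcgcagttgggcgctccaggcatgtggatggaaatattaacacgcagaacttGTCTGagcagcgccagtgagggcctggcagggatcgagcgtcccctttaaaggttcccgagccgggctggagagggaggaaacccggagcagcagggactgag
Robo2, chr16:74411826-74412075, minus strand: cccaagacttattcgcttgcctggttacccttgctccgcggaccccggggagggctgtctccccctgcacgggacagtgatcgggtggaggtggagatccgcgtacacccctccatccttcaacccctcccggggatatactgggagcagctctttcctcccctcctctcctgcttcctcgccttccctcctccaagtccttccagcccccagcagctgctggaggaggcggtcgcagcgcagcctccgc
Epha3, chr16:63864176-63864425, minus strand: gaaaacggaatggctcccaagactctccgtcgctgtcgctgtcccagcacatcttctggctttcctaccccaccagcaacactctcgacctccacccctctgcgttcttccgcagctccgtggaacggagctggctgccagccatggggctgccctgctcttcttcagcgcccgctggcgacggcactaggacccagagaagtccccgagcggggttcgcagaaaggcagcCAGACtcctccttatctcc
Robo4, chr9:37401722-37401896, plus strand: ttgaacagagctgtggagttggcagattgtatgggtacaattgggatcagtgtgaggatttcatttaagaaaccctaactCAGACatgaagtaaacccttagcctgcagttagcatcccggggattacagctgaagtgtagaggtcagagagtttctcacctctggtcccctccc
The motif stood 1 time each in the Robo1, Epha3 and Robo4 stretches and 0 times in that of Robo2, where the Robo4 stretch has 175 bases and each of the others 250. Over the 250 bases before each RefSeq start it was present on either strand in 42.2% of 32851 promoters, in 32 of 59 promoters of the 44 tested members that matched the RefSeq table, and in 7 of 11 promoters of the 8 lower members that matched. These are matches of letters and do not show that a factor is bound.

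Among the semaphorins, the ligands of plexins, 17 of 20 rows were tested, 2 were lower (2.79% of all genes) and 15 did not pass. Sema3a (ENSMUSG00000028883, chromosome 5, 13125414 to 13602565, plus strand), a secreted ligand that acts through neuropilin 1 and A plexins, had 13, 14 and 9 counts in the libraries labelled ECKO and 51, 67 and 79 in f/f. The levels were 0.865, 0.813 and 0.516 CPM in the libraries labelled ECKO and 2.13, 3.29 and 3.27 CPM in f/f, with no overlap. The log2 fold change was -1.98 (SE 0.35, edgeR adjusted p = 0.0307), and the call held on leaving out f/f replicate 1 (0.0159) and no other library (0.0715 to 0.115). It was lost in all 3 FPKM settings (limma adjusted p 0.0757 to 0.184).

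Sema6c (ENSMUSG00000038777, chromosome 3, 95160457 to 95174024, plus strand), a transmembrane semaphorin, was at 2.26, 2.91 and 2.52 CPM in the libraries labelled ECKO, against 5.73, 6.34 and 7.83 CPM in f/f. Every f/f library was above every library labelled ECKO (log2 fold change -1.37, SE 0.22, edgeR adjusted p = 0.0241). That call, too, held on leaving out f/f replicate 1 (0.0163) and no other library (0.0513 to 0.111), and it was lost in all 3 FPKM settings (limma adjusted p 0.0584 to 0.0819). Sema3c, which acts through neuropilins, was at 1.86, 2.85 and 3.73 CPM in the libraries labelled ECKO and 5.10, 12.97 and 7.66 CPM in f/f, and did not pass (log2 fold change -1.60, SE 0.40, edgeR adjusted p = 0.0675). Sema5a, a transmembrane semaphorin with thrombospondin repeats, was at 2.596, 3.25 and 2.81 CPM in the libraries labelled ECKO and 4.93, 15.03 and 8.20 CPM in f/f (log2 fold change -1.69, SE 0.40, adjusted p = 0.0614). Both passed with DESeq2, with total-count scaling, with no filter on counts and without f/f replicate 1, and f/f replicate 2 was the highest library for each.

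The most abundant semaphorin was Sema3f, a secreted ligand of neuropilin 2 that restrains endothelial growth. It was at 457, 550.2 and 489.8 CPM in the libraries labelled ECKO and 432, 319 and 351 CPM in f/f, with no overlap (log2 fold change 0.44, SE 0.14, edgeR adjusted p = 0.114). On FPKM it averaged 54.2 ± 10.03 in the libraries labelled ECKO and 46.3 ± 2.82 in f/f (SD, n = 3 each). Sema6b, a ligand of A plexins, averaged 33.5 ± 4.23 FPKM in the libraries labelled ECKO and 32.1 ± 2.78 FPKM in f/f (adjusted p = 0.273). Sema4c, a ligand of Plxnb2, averaged 11.1 ± 2.45 FPKM in the libraries labelled ECKO and 19.1 ± 2.36 FPKM in f/f. On the CPM scale its groups overlapped, at 125, 66.6 and 88.2 CPM in the libraries labelled ECKO and 172, 112 and 120 CPM in f/f. The test on counts was not passed (log2 fold change -0.54, SE 0.26, edgeR adjusted p = 0.257). Sema6a, a ligand of Plxna2 and Plxna4, averaged 7.99 ± 0.857 FPKM in the libraries labelled ECKO and 10.2 ± 0.430 FPKM in f/f. On the CPM scale its groups overlapped, at 188, 171 and 208 CPM in the libraries labelled ECKO and 243, 185 and 192 CPM in f/f. The test on counts was not passed (log2 fold change -0.13, edgeR adjusted p = 0.596). Among the other class 3 ligands, Sema3d was at 32.1, 31.8 and 29.0 CPM in the libraries labelled ECKO and 28.7, 35.5 and 38.9 CPM in f/f (adjusted p = 0.522), and Sema3g was at 1.40, 4.88 and 1.78 CPM in the libraries labelled ECKO and 2.34, 4.67 and 6.13 CPM in f/f (adjusted p = 0.466). The remaining 7 tested semaphorins (Sema3b, Sema4a, Sema4b, Sema4d, Sema4g, Sema6d and Sema7a) ranged from -1.58 to 0.38 on the log2 scale.

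All 9 plexins were tested, 2 were lower (2.79% of all genes) and 7 did not pass. Plxna4 (ENSMUSG00000029765, chromosome 6, 32144268 to 32588192, minus strand), a receptor that takes part in Sema3a signalling, was at 35.8, 29.9 and 28.5 CPM in the libraries labelled ECKO, against 66.2, 43.1 and 60.0 CPM in f/f. The groups did not overlap (log2 fold change -0.85, SE 0.17, edgeR adjusted p = 0.0414). The call held on leaving out f/f replicate 2 (0.0244) and was lost on leaving out any other library (0.0545 to 0.145). Plxna4os1, a transcript on the opposite strand within Plxna4, had 187 counts against 5456 for Plxna4, and without a stated strand setting reads of the 2 genes cannot be told apart. Its log2 fold change was 0.03 (SE 0.43, adjusted p = 0.969), which turned to -0.23 under total-count scaling.

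Plxnb1 (ENSMUSG00000053646, chromosome 9, 109095389 to 109119917, plus strand), the receptor of Sema4d, was at 9.52, 7.67 and 10.6 CPM in the libraries labelled ECKO, against 17.0, 31.8 and 23.0 CPM in f/f. All 3 f/f libraries were higher (log2 fold change -1.37, SE 0.24, edgeR adjusted p = 0.0309). Leaving out f/f replicate 1 or 2 kept it below the threshold (0.00908 and 0.0495), and leaving out any other library did not (0.0857 to 0.106). Its ligand Sema4d was at 1.46, 1.45 and 1.32 CPM in the libraries labelled ECKO and 2.22, 4.77 and 2.11 CPM in f/f, without passing (log2 fold change -1.09, SE 0.39, edgeR adjusted p = 0.145).

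**Figure D3:**
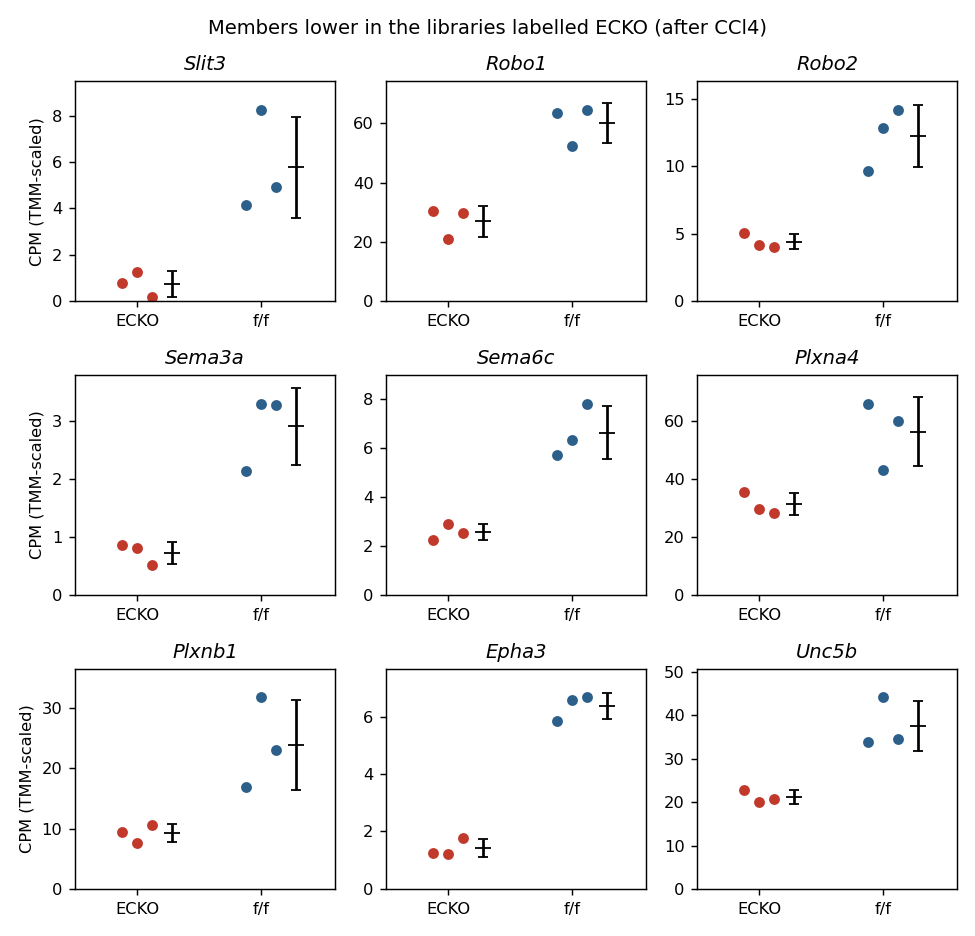
CPM (vertical axis, TMM-scaled, from 0) of the 9 members that were lower, in each library (dots, replicates 1 to 3 from left to right) with the mean and SD beside them (n = 3 each), ECKO in red and f/f in blue. In each panel all 3 libraries labelled ECKO lie below all 3 f/f libraries, for example at 1.22 to 1.78 CPM (ECKO) against 5.85 to 6.67 CPM (f/f) for Epha3.

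Plxnd1, the endothelial receptor of Sema3e, was the most abundant member, at 148, 145 and 169 FPKM in the libraries labelled ECKO and 180.3, 159 and 181 FPKM in f/f. The test on counts was not passed (log2 fold change 0.06, SE 0.15, edgeR adjusted p = 0.832). Plxnc1, the receptor of Sema7a, followed at 136, 136 and 164 FPKM in the libraries labelled ECKO and 139, 167 and 154 FPKM in f/f (log2 fold change 0.17, SE 0.12, adjusted p = 0.447). These 2 neighbours in the order of levels overlapped in their ranges in each group. Both log2 fold changes turned negative under total-count scaling (-0.17 and -0.08), which lowered the median of all genes to -0.22. Plxnb2, the receptor of Sema4c, came next among the plexins at 21.6 ± 1.65 FPKM in the libraries labelled ECKO and 28.5 ± 3.30 FPKM in f/f (SD, n = 3 each). On the CPM scale it was at 213, 204 and 216 in the libraries labelled ECKO and 234, 243 and 231 in f/f. The test on counts was not passed (log2 fold change -0.16, edgeR adjusted p = 0.305). Of their ligands, Sema3e had 3 counts in the libraries labelled ECKO and 8 in f/f, and Sema7a was at 0.399, 1.22 and 0.229 CPM in the libraries labelled ECKO and 1.00, 2.55 and 2.07 CPM in f/f. Plxna1, Plxna2, Plxna3 and Plxnb3 ranged from -1.15 to -0.34 on the log2 scale without passing.

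**Figure D4:**
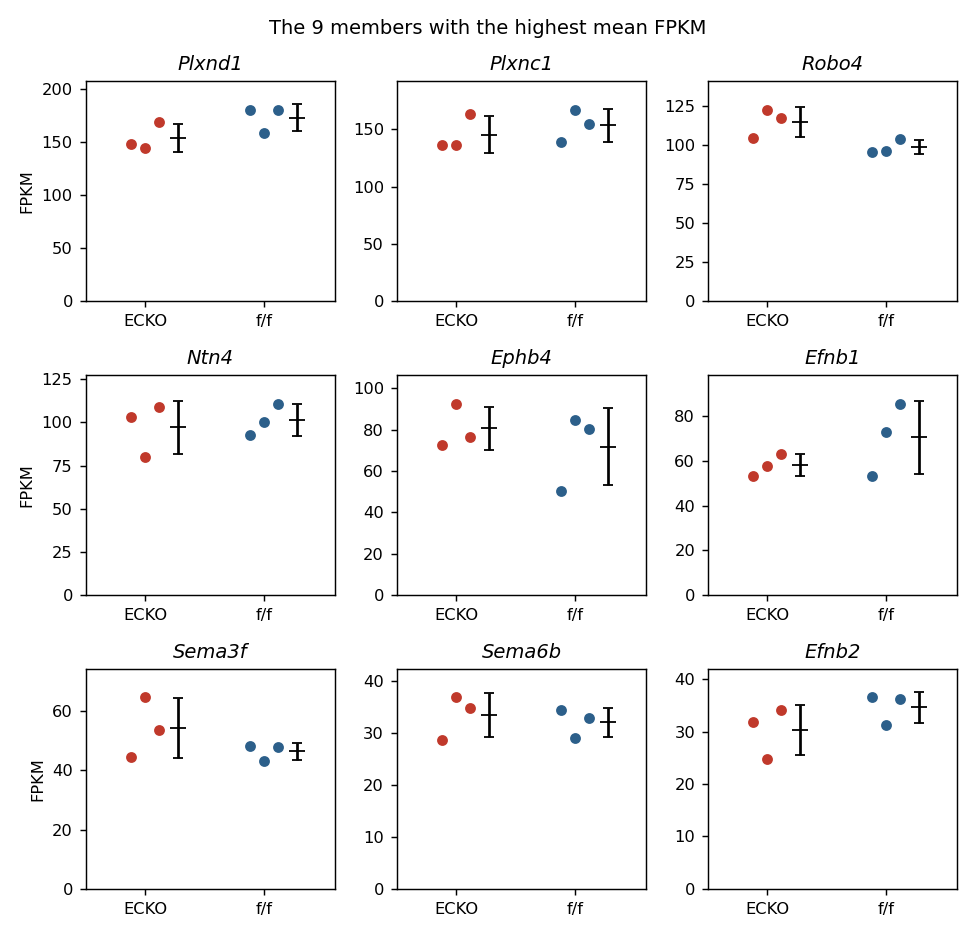
FPKM (vertical axis, from 0) of the 9 members with the highest mean FPKM in each library (dots, replicates 1 to 3 from left to right) with the mean and SD (n = 3 each), ECKO in red and f/f in blue. Plxnd1 spans 145 to 169 FPKM in the libraries labelled ECKO and 159 to 181 FPKM in f/f, and none of the 9 passed in edgeR with all 6 libraries, while DESeq2 called Robo4 higher (adjusted p = 0.00623).

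Of 14 Eph receptors 10 were tested, 1 was lower (2.79% of all genes) and 9 did not pass. Epha3 (ENSMUSG00000052504, chromosome 16, 63543538 to 63864158, minus strand), a receptor of A ephrins, had 19, 21 and 31 counts in the libraries labelled ECKO and 140, 134 and 161 in f/f. The levels were 1.26, 1.22 and 1.78 CPM in the libraries labelled ECKO, against 5.85, 6.58 and 6.67 CPM in f/f. This 4.46-fold lower level had the smallest p of all members (log2 fold change -2.16, SE 0.24, edgeR adjusted p = 0.00938). Leaving out ECKO replicate 1 lost the call (0.0511), and leaving out any other library kept it (0.00727 to 0.0460). Its upstream sequence is given above with those of the Robo genes.

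Ephb4, the venous receptor of ephrin B2, was the most abundant Eph receptor, at 804, 851 and 753 CPM in the libraries labelled ECKO and 487, 676 and 638 CPM in f/f. No library of one group reached the other, yet the test was missed (log2 fold change 0.42, SE 0.14, edgeR adjusted p = 0.129). Epha2, the main receptor of ephrin A1 in endothelium, was at 51.3, 54.2 and 52.2 CPM in the libraries labelled ECKO and 56.3, 51.4 and 55.9 CPM in f/f (log2 fold change -0.05, SE 0.09, adjusted p = 0.746). Epha7, another receptor of A ephrins, was at 3.79, 1.28 and 3.10 CPM in the libraries labelled ECKO and 6.15, 8.06 and 7.04 CPM in f/f, and it did not pass in edgeR (log2 fold change -1.38, SE 0.36, adjusted p = 0.0777). It passed with DESeq2 (adjusted p = 0.00524), with total-count scaling (0.0153) and with no filter on counts (0.0494). Ephb6, a receptor without kinase activity, had 25, 30 and 25 counts in the libraries labelled ECKO and 52, 127 and 108 in f/f, and was called lower by DESeq2 but not by edgeR (edgeR adjusted p = 0.0927). Epha1, Ephb1, Ephb2 and Ephb3 lay between -1.48 and -1.28 and Epha4 at 0.08, with SEs of 0.31 to 0.81. Epha1 overlaps Zyx, which had 9765 counts against 185, on the opposite strand.

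None of the 6 tested ephrins passed in edgeR. At an unadjusted p under 0.05, 1 was lower, DESeq2 called 1 lower and limma-voom 0, against 13.1%, 5.15% and 1.46% of all genes. That ephrin was Efna5, a ligand of A-type receptors, at 0.732, 0.755 and 1.20 CPM in the libraries labelled ECKO and 3.39, 1.72 and 2.36 CPM in f/f (log2 fold change -1.46, SE 0.38, edgeR adjusted p = 0.0767). Efnb1, a ligand of B-type receptors, averaged 58.2 ± 4.92 FPKM in the libraries labelled ECKO and 70.6 ± 16.3 FPKM in f/f (SD, n = 3 each), and the test on counts was not passed (log2 fold change -0.03, SE 0.13, adjusted p = 0.917). Efnb2, the arterial partner of Ephb4, averaged 30.3 ± 4.83 FPKM in the libraries labelled ECKO and 34.6 ± 3.00 FPKM in f/f, and its log2 fold change of 0.04 (SE 0.19, adjusted p = 0.905) turned to -0.19 under total-count scaling. Efna1 was at 124, 72.2 and 79.1 CPM in the libraries labelled ECKO and 61.6, 64.4 and 73.2 CPM in f/f (log2 fold change 0.47, SE 0.20, adjusted p = 0.221). ECKO replicate 1 was the highest library for Efna1, and the groups overlapped. Efna2 and Efnb3 had log2 fold changes of -1.02 and 0.08.

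Neither tested netrin passed in edgeR, and none was called by DESeq2 or limma-voom or had an unadjusted p under 0.05. Ntn4, a netrin of basement membranes that binds laminin, was at 103, 79.9 and 109 FPKM in the libraries labelled ECKO and 93.0, 100.3 and 111 FPKM in f/f, overlapping throughout. Its log2 fold change was 0.19 (SE 0.17, edgeR adjusted p = 0.516), or -0.06 under total-count scaling. Ntn1, the ligand of Unc5b and of Dcc, averaged 7.89 ± 3.21 FPKM in the libraries labelled ECKO and 10.1 ± 3.57 FPKM in f/f (SD, n = 3 each; adjusted p = 0.844).

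Unc5b (ENSMUSG00000020099, chromosome 10, 60762610 to 60831581, minus strand), the endothelial netrin receptor that is also a partner of Robo4, was lower. It was at 22.9, 19.9 and 20.8 CPM in the libraries labelled ECKO, against 33.8, 44.2 and 34.6 CPM in f/f, with a gap between the groups. The log2 fold change was -0.82 (SE 0.14, edgeR adjusted p = 0.0250), which held on leaving out f/f replicate 1 or 2 (0.0179 and 0.0490) and on leaving out no other library (0.0630 to 0.0877). Unc5a was the more abundant Unc5 receptor, at 8.998, 11.3 and 9.90 FPKM in the libraries labelled ECKO and 11.7, 13.03 and 13.8 FPKM in f/f. On the CPM scale its groups overlapped, at 55.52, 58.04 and 54.47 CPM in the libraries labelled ECKO and 62.93, 58.02 and 61.22 CPM in f/f. The test on counts was not passed (log2 fold change -0.12, SE 0.09, edgeR adjusted p = 0.452). Unc5a overlaps Hk3 on the opposite strand, which had 193 counts against 6947.

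Outside the families, 23 genes that serve them as co-receptors or further ligands were listed, and 18 were tested. Flrt2, a transmembrane ligand of Unc5 receptors, was lower, at 22.2, 21.6 and 20.5 CPM in the libraries labelled ECKO and 40.5, 83.7 and 82.0 CPM in f/f (log2 fold change -1.68, SE 0.27, edgeR adjusted p = 0.0263). Flrt2 stayed below the threshold on leaving out f/f replicate 1 (3.08e-04) and no other library (0.0562 to 0.103). The other 17 did not pass in edgeR. At an unadjusted p under 0.05, 1 of the 18 was higher and 7 were lower, Flrt2 among them, while DESeq2 called 1 higher and 6 lower and limma-voom 0 higher and 1 lower. Nrp1, the co-receptor for Sema3a and VEGF, was at 1299, 944 and 1311 CPM in the libraries labelled ECKO and 1528, 1175 and 1209.8 CPM in f/f (log2 fold change -0.14, SE 0.17, adjusted p = 0.646). Nrp2, the co-receptor for Sema3f, was at 598, 412 and 687 CPM in the libraries labelled ECKO and 647, 516 and 561 CPM in f/f (log2 fold change -0.02, SE 0.19, adjusted p = 0.952). The netrin receptor gene Dcc had 0 counts in every library. Of 54 intracellular effectors 51 were tested and 0 passed in edgeR, with a median log2 fold change of -0.15. At an unadjusted p under 0.05, 2 of them were higher and 15 lower, and DESeq2 called 7 lower and limma-voom 0. Beside both lists, 10.4% of all genes were higher and 13.1% lower at that unadjusted p. EdgeR called 1.24% of all genes higher and 2.79% lower, DESeq2 2.25% and 5.15%, and limma-voom 0.84% and 1.46%.

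The members left out of the test had low counts. The 6 with 10 or more counts were Efna4 (14 counts in the libraries labelled ECKO, 42 in f/f), Sema5b (11 in ECKO, 27 in f/f), Unc5c (2 in ECKO, 14 in f/f), Sema3e (3 in ECKO, 8 in f/f), Ntn5 (3 in ECKO, 7 in f/f) and Epha5 (5 in ECKO, 6 in f/f). Under 10 counts were Robo3, Efna3, which had 0 counts in the libraries labelled ECKO and 3 in f/f, and Slit1. Epha6, Epha8, Epha10, Sema4f, Unc5d, Plxna4os2 and Plxna4os3 had 0 counts in all 6 libraries, where 0 counts in 1 library allow up to 3 counts, or 0.124 to 0.200 CPM, for counting error only.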

How the data were processed

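RNA sequencing of LSECs gave 3 libraries of Tgfbr2 ECKO and 3 of Tgfbr2f/f mice, all after CCl4. Per the file headers, the authors deposited unscaled whole-number counts and FPKM for each gene and library in 1 table, and 0 of its per-library columns were left unused. FPKM equalled count over gene length and library total to within a relative difference of 3.84e-06 (7566 genes with over 200 counts in every library). The submitters' processing notes name HISAT2 2.0.4 and StringTie 1.3.0, with no role, and mm10 and GRCm38.p4; the counter, annotation and strand setting were not given in the sources used here. Totals of 17171850 to 25062755 counts limit precision for low genes. All 68 member identifiers matched a reference table of symbols, and 56 members matched the RefSeq promoter table.

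The tests ran in edgeR 4.0.16 under R 4.3.3, with filterByExpr (minimum count 10, minimum total 15), TMM scaling, robust quasi-likelihood F-test, genotype as the only term, two-sided, Benjamini-Hochberg adjustment over 13692 genes, threshold 0.05. SE is the absolute log2 fold change over the square root of F. Code was tested on simulated data. With 3 libraries against 3, an exact permutation test of a single value cannot go below 0.1. Alternatives were DESeq2 1.42.0, limma 3.58.1 (voom, and log2(FPKM + pseudocount of 0.1 or 1)), other scaling, no filter, a replicate block and leaving out each library. Members, lists and alternatives were chosen with earlier results of these data known. Named members were those past the threshold and, in each family, up to 3 with the highest mean FPKM and up to 2 with the smallest p. Others (Sema4d, Sema7a, Ephb6 and members given by range) were named after their values were seen. From the lists, Nrp1, Nrp2 and genes past the threshold were named. The printed promoters were also picked after values were seen.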

Additional observations from a re-analysis of the deposited data

How the results depend on the processing

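The count of 9 lower and 0 higher members was 14 and 1 with DESeq2, 18 and 0 with total-count scaling, 5 and 0 with limma-voom, and 3 and 0 on log2(FPKM + 0.1) with no filter; it stayed within 1.5 times with RLE size factors (9), no filter on counts (12), log2(FPKM + 0.1) (8) and log2(FPKM + 1) (6). Leaving out 1 library gave 0 to 11 lower and 0 to 2 higher. The members covered numbered 58 with DESeq2 and with no filter, 51 in the other FPKM settings, and 52 or 53 elsewhere. The cause of these differences was not tested. The members' median of -0.59 was -0.73 to -0.43 without single libraries and -0.85 with total-count scaling (all genes: -0.22). With the replicate number as a block, 9 members were lower and 0 higher, against 2.08% and 0.957% of all genes. Same-numbered libraries correlated at 0.0946, 0.152 and -0.0520 in their deviations, so the numbers are not taken as pairs. Under the block, Sema3a (edgeR adjusted p = 0.0577) and Plxnb1 (0.0551) missed the threshold and Sema3c (0.0467) and Sema5a (0.0478) passed.

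Of 36 named genes, 10 reversed somewhere, none of them past the threshold in the main test. The groups did not overlap for the genes past it, so a reversal could hardly occur there when a library was left out. In the order total-count scaling, log2(FPKM + 0.1), log2(FPKM + 1) and log2(FPKM + 0.1) with no filter, the log2 fold change was -0.19, -0.20, -0.20 and -0.20 for Efnb2, -0.0602, -0.0685, -0.0678 and -0.0685 for Ntn4, -0.23, -0.11, -0.0852 and -0.11 for Plxna4os1, -0.17, -0.17, -0.17 and -0.17 for Plxnd1, and -0.0778, -0.0786, -0.0781 and -0.0786 for Plxnc1. Without single libraries the range was -0.0724 to 0.22 for Efnb2, -0.11 to 0.0936 for Efnb1, -0.40 to 0.0709 for Ntn1, -0.27 to 0.44 for Plxna4os1, -0.21 to 0.0132 for Sema6a, -0.0450 to 0.20 for Plxnd1, -0.21 to 0.00548 for Nrp1 and -0.18 to 0.17 for Nrp2. Members with under 1 CPM in a group rest on few counts per library.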
